A study of Mus musculus with 2 samples.

Results

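Cubn, Lrp2, Amn, Dab2, Lrpap1, Ctsb, Ctsd, Ctsh, Ctsl and Ctsz were followed across the cell classes of the mouse yolk sac at E8.75. These 10 genes, of 30970 in the deposited matrices, were taken by symbol as endocytic receptors with their partners and as lysosomal cathepsins, and all 10 were found. Single-cell RNA sequencing had been run on dissociated yolk sac cells that were tagged with CellPlex oligonucleotides and pooled, and the stated purpose of the series was to set cells that carry cilia beside the unciliated lineage of the visceral endoderm. Every sample carried the genotype Ttr-Cre/+; R26lsl-rtTA-EGFP/+, so every class below shares a Cre transgene named for Ttr, a gene of the visceral endoderm, and an lsl-rtTA-EGFP allele at R26, and there was no other genotype and no treatment. The counts come as 3 tagged samples (called 1, 2 and 3 here), each labelled a control. Values are unique molecular identifiers (UMIs), which count tagged transcript molecules, and a level is given in CPM, the UMIs of a gene scaled to a total of 1000000 UMIs for its class in 1 tagged sample. Levels are not adjusted for transcript length, so they are compared between classes and not between genes.

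Cells were placed in 4 classes by the share of their UMIs from gate genes, none of which is among the 10. The classes held 559 endoderm cells, 199 mesoderm cells, 115 endothelium cells and 629 erythroid cells of 1740 that passed the filters, and 188 cells entered no class and 50 passed 2 or more gates. Visceral endoderm markers outside the gate were highest in the endoderm class for 10 of 10 genes, and endothelium and erythroid markers were highest in their own class for 8 of 8 genes each. For mesoderm it was 7 of 8, since Pdgfra was at 22.3 CPM in endoderm and 16.9 in mesoderm. No cell barcode was shared between tagged samples. Each tagged sample held cells with Xist and cells with Y-linked transcripts (Xist cells were 55.7%, 59.4% and 38.7% of those that could be called), whereas 3 embryos are named in the design. The p-values below therefore measure the spread between tagged samples, whose number of embryos is not settled.

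The visceral endoderm is the outer epithelium of the yolk sac, and before the placenta works it takes up maternal and luminal proteins, digests them in lysosomes and passes on their amino acids, lipids, iron and vitamins. Cubilin (Cubn), a large peripheral membrane receptor without its own membrane anchor, and megalin (Lrp2), a member of the LDL receptor family, bind many of those proteins at the apical surface. Amnionless (Amn) anchors cubilin in the membrane, the adaptor Dab2 links megalin to clathrin, and the receptor-associated protein Lrpap1 is a chaperone of LDL family receptors in the endoplasmic reticulum. Cathepsins are the proteases of the lysosome: Ctsb, Ctsh, Ctsl and Ctsz are cysteine proteases and Ctsd is an aspartic protease.

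On GRCm38, the build in the submitters' processing notes, GENCODE M21 places Cubn (ENSMUSG00000026726) on chromosome 2 from 13276338 to 13491813 and Lrp2 (ENSMUSG00000027070) on chromosome 2 from 69424340 to 69586065, both on the minus strand. Amn (ENSMUSG00000021278) lies on chromosome 12 from 111271095 to 111276426, and Ctsd (ENSMUSG00000007891) on chromosome 7 from 142375911 to 142388038. Promoter windows of 250 bases before and 50 after the transcription start, from RefSeq on GRCm38.p6, were held for 8 of the 10 genes, with 2 windows for Dab2. The windows of 4 genes are shown because they stand for the patterns described below: Cubn and Amn were at background outside endoderm, Lrp2 was also well above background in mesoderm, and Ctsd was in every class. Capitals mark matches to the motifs searched on both strands, which were AGATAA for GATA factors, GTTAAT for HNF1, CAAAGT for HNF4, TCACGTG for the core of the CLEAR element, which TFEB and its relatives bind at lysosomal genes, and TATAAA for the TATA box.
Cubn, chr2:13491827-13492126, minus strand: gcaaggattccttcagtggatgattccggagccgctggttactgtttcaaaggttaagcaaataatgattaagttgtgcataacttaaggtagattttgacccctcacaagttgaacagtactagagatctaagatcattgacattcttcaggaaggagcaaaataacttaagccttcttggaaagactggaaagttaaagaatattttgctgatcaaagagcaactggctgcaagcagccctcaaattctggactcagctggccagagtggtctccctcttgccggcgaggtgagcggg
Lrp2, chr2:69585980-69586279, minus strand: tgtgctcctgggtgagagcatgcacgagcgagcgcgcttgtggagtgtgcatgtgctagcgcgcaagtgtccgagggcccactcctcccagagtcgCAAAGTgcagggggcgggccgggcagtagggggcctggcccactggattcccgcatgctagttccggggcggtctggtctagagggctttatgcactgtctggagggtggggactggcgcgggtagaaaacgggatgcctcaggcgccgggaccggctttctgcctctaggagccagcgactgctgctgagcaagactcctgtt
Amn, chr12:111270846-111271145, plus strand: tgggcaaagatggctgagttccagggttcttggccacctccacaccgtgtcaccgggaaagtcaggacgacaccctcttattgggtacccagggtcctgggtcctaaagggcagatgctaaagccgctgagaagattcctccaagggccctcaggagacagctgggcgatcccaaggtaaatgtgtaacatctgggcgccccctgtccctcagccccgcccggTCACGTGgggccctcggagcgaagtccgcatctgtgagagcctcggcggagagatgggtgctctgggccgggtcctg
Ctsd, chr7:142387778-142388077, minus strand: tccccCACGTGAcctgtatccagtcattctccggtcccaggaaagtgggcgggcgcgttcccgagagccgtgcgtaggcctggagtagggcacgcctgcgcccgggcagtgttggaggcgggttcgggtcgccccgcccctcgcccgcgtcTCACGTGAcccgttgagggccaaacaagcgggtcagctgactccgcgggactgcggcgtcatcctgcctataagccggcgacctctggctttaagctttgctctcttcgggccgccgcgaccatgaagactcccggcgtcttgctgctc

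Counting from 1 at the 5′ end of each window, Amn had 1 match to the CLEAR core at position 224. Ctsd had matches at 6, 152 and 153, of which the last 2 are the same palindrome read on both strands. The CLEAR core was found in 3.77% of 32851 RefSeq promoter windows of that length. Lrp2 had an HNF4 match at 97, and such a match was found in 14.4% of windows. In the windows not shown, Dab2 had a GATA and an HNF4 match in one window and an HNF1 match in the other, Ctsl an HNF4 match and Ctsz a GATA match. GATA matches were found in 11.2% of windows, HNF1 matches in 7.10% and TATA box matches in 13.6%. Cubn and Lrpap1 had none of these letters in their windows. A match describes letters in the window and not the binding of a factor.

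All 10 genes were higher in endoderm than in each other class. Together they made up 0.982% ± 0.0457 of endoderm UMIs (SD, n = 3 tagged samples), of which the 5 cathepsins gave 0.660% ± 0.0600. The share was 0.0878% ± 0.0109 in mesoderm, 0.107% ± 0.0137 in endothelium and 0.0436% ± 0.00113 in erythroid cells. The sums of each class in each tagged sample were tested with edgeR's quasi-likelihood test, two-sided, with p adjusted by Benjamini and Hochberg over all genes tested. In mesoderm against endoderm, 10 of 10 were called lower and 0 higher, where 33.2% of 11011 genes tested were called lower and 30.6% higher. In endothelium against endoderm it was 10 of 10 lower, beside 31.9% of 10694 genes lower and 28.6% higher. In erythroid cells against endoderm it was again 10 of 10 lower, beside 41.8% of 11055 genes lower and 36.1% higher. The median log2 difference of the 10 was -3.83, -4.05 and -4.89 in these comparisons, where all genes tested had medians of -0.02, -0.05 and -0.05. The largest adjusted p among the 30 tests was 0.00393, for Ctsd in endothelium. These 3 comparisons share the same endoderm sums, so they are not independent of each other. The 10 genes were chosen with earlier results of these data known, so the counts are not a test of the group.

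**Figure D1:**
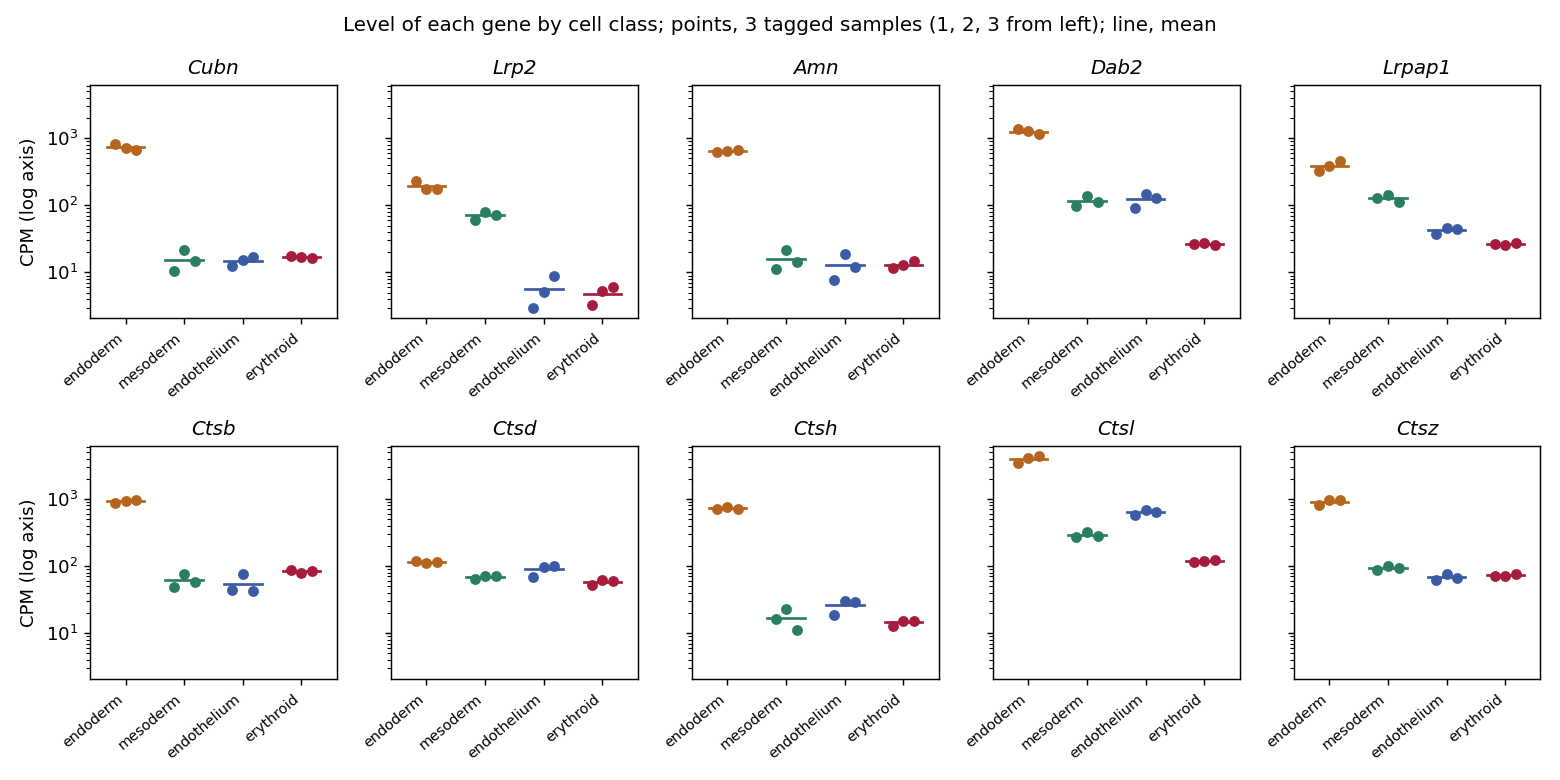
Level of each gene in CPM (log axis) by cell class, with 1 point for each of tagged samples 1, 2 and 3 and a line at their mean. Every endoderm point lies above every point of the other classes for all 10 genes, Lrp2 and Lrpap1 stay high in mesoderm, and Ctsd differs least between classes.

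UMIs of endoderm genes were found in every class, and the level of other endoderm genes in a class was taken as its background. Of 10 visceral endoderm genes outside the gate, the median gene in mesoderm stood at 2.73% of its endoderm level, in endothelium at 2.22% and in erythroid cells at 2.02%. Apoa1, the main HDL apolipoprotein, was at 2.07%, 2.13% and 1.80%, and Rbp4, the plasma retinol carrier, at 1.77%, 1.80% and 1.47%. The exception was Amot, a junction-associated regulator of YAP, at 13.6%, 25.5% and 8.86%, and the next highest gene in mesoderm was the tight junction gene Cldn6 at 5.73%. Against this background the 10 genes fell into those at the background and those above it.

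Cubilin RNA was far higher in endoderm than anywhere else. Cubn was at 833, 708 and 672 CPM in endoderm of tagged samples 1, 2 and 3, and at 10.5, 21.4 and 14.8 in mesoderm. In endothelium the values were 12.5, 15.4 and 16.8, and in erythroid cells 17.8, 17.2 and 16.7. The lowest endoderm value was thus more than an order of magnitude above every other value, and the ranges of the other 3 classes overlapped. Log2 differences from endoderm were -5.78 (SE 0.17) in mesoderm, -5.77 (SE 0.13) in endothelium and -5.21 (SE 0.09) in erythroid cells, with adjusted p of 4.12e-10, 3.86e-12 and 1.83e-12. As a percent of the endoderm level Cubn stood at 2.16, 2.06 and 2.35, which is the background of other endoderm genes.

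Amnionless, the partner without which cubilin does not reach the membrane, had the same distribution. Amn was at 634, 652 and 663 CPM in endoderm, between 11.4 and 21.8 in mesoderm, between 7.72 and 19.1 in endothelium and between 11.8 and 14.7 in erythroid cells. It stood at 2.44%, 1.99% and 2.01% of its endoderm level, again at the background. The log2 differences were -5.58 (SE 0.15), -5.81 (SE 0.17) and -5.38 (SE 0.09). Endoderm values of Amn differed little between tagged samples, with an SD of 15.0 on a mean of 649.5.

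Megalin departed from its co-receptor in mesoderm. Lrp2 was at 227, 178 and 177 CPM in endoderm and at 60.5, 79.7 and 72.9 in mesoderm. In endothelium it was at 2.97, 5.15 and 8.80, and in erythroid cells at 3.24, 5.23 and 6.08. The mesoderm values lay below every endoderm value and above every endothelium and erythroid value. Mesoderm thus held 37.6% ± 9.62 of the endoderm level of Lrp2 (SD, n = 3; 26.7% to 44.9%), while endothelium at 3.06% and erythroid cells at 2.60% were near the background. The log2 difference of mesoderm from endoderm was -1.68 (SE 0.12, adjusted p = 2.67e-07), against -5.29 (SE 0.22) in endothelium and -4.96 (SE 0.15) in erythroid cells. Set directly against mesoderm, Lrp2 was lower in endothelium by a log2 difference of -3.59 (SE 0.27, adjusted p = 4.7e-07) and in erythroid cells by -3.33 (SE 0.17, adjusted p = 1.43e-08).

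The range of the ratio of Lrp2 to Cubn UMIs overlapped that of endoderm in endothelium and erythroid cells and lay above it in mesoderm, and the part of carried-over endoderm RNA in the Lrp2 level of mesoderm was not tested. In endoderm there were 0.251 to 0.272 UMIs of Lrp2 for each UMI of Cubn over the 3 tagged samples. The ratio was 0.238 to 0.524 in endothelium, on 23 UMIs of Lrp2 in all, and 0.182 to 0.364 in erythroid cells. In mesoderm it was 3.73 to 5.78, from 510 UMIs of Lrp2 and 113 of Cubn. The 10 visceral endoderm markers summed to 409 to 547 CPM in mesoderm, 380 to 653 in endothelium and 353 to 394 in erythroid cells, beside 17829 to 24127 in endoderm, and the ranges of mesoderm and endothelium overlapped. Of 7 parietal endoderm markers, Pthlh was at 0 in every class and the sum in mesoderm was 622 to 1581, beside 813 to 884 in endoderm and 1451 to 1980 in endothelium. Most of the mesoderm sum was Sparc (605) and Col4a1 (293), and 4 of the 7 were highest in endothelium. The 2 highest in mesoderm were Lama1 (33.9, beside 14.5 in endoderm and 2.11 in endothelium) and Srgn (11.5, beside 5.69 and 0.512). The part of parietal endoderm RNA in the Lrp2 level of mesoderm was not tested. Amn, by contrast with Lrp2, gave 0.760 to 0.988 UMIs for each UMI of Cubn in endoderm and 0.971 to 1.09 in mesoderm.

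The share of cells with a UMI told the same when each cell was thinned to 10000 UMIs, leaving out 28, 13, 15 and 7 shallower cells of the endoderm, mesoderm, endothelium and erythroid classes. Lrp2 was then seen in 83 of 186 mesoderm cells, or 44.6% (95% exact binomial interval 37.3 to 52.1), and in 38.2% to 51.6% of them by tagged sample. It was seen in 80.6% of 531 endoderm cells, in 7 of 100 endothelium cells and in 4.5% of 622 erythroid cells. Cubn was seen in 12.4% of mesoderm cells, 19.0% of endothelium cells and 16.6% of erythroid cells, which are its background shares, and in 99.1% of endoderm cells. Without thinning, Lrp2 was seen in 72.4% of 199 mesoderm cells and 20.8% of 629 erythroid cells, where median depth was 34959 and 47771 UMIs. These intervals cover counting error only, since cells of 1 tagged sample are not independent replicates.

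The clathrin adaptor Dab2 was high in endoderm, lower in mesoderm and endothelium, and at background in erythroid cells. Its endoderm values were 1363, 1259.7 and 1145 CPM. Mesoderm gave 97.8, 136 and 112, endothelium 92.6, 149 and 128, and erythroid cells 26.9, 27.1 and 25.4. Mesoderm and endothelium overlapped, and both lay above all erythroid values and below all endoderm values. As a percent of the endoderm level that was 9.23, 9.94 and 2.11. Dab2 in endothelium and mesoderm did not differ by the test (log2 difference 0.21, SE 0.17, adjusted p = 0.38), and erythroid cells were lower than either, by -1.71 (SE 0.12) against mesoderm and -1.90 (SE 0.14) against endothelium, with adjusted p of 1.23e-07 and 1.86e-07.

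Lrpap1, the chaperone of megalin and its relatives, was graded over the classes and followed Lrp2 in mesoderm. It was at 329, 389 and 449.8 CPM in endoderm, 128, 144 and 113 in mesoderm, 37.4, 45.6 and 44.0 in endothelium, and 26.4, 25.9 and 27.1 in erythroid cells. None of these ranges overlapped. Mesoderm held 33.7% ± 7.50 of the endoderm level, endothelium 11% ± 1.04 and erythroid cells 6.91% ± 1.03 (SD, n = 3), all above the background of endoderm genes other than Amot. Endothelium was lower than mesoderm by a log2 difference of -1.49 (SE 0.15, adjusted p = 5.04e-06), and erythroid cells by -1.86 (SE 0.10, adjusted p = 2.45e-08). Erythroid cells were lower than endothelium by -0.35 (SE 0.12, adjusted p = 0.025), and this call was lost under 5 of 13 alternatives, among them leaving out tagged sample 2 (adjusted p = 0.170) or 3 (0.118).

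**Figure D2:**
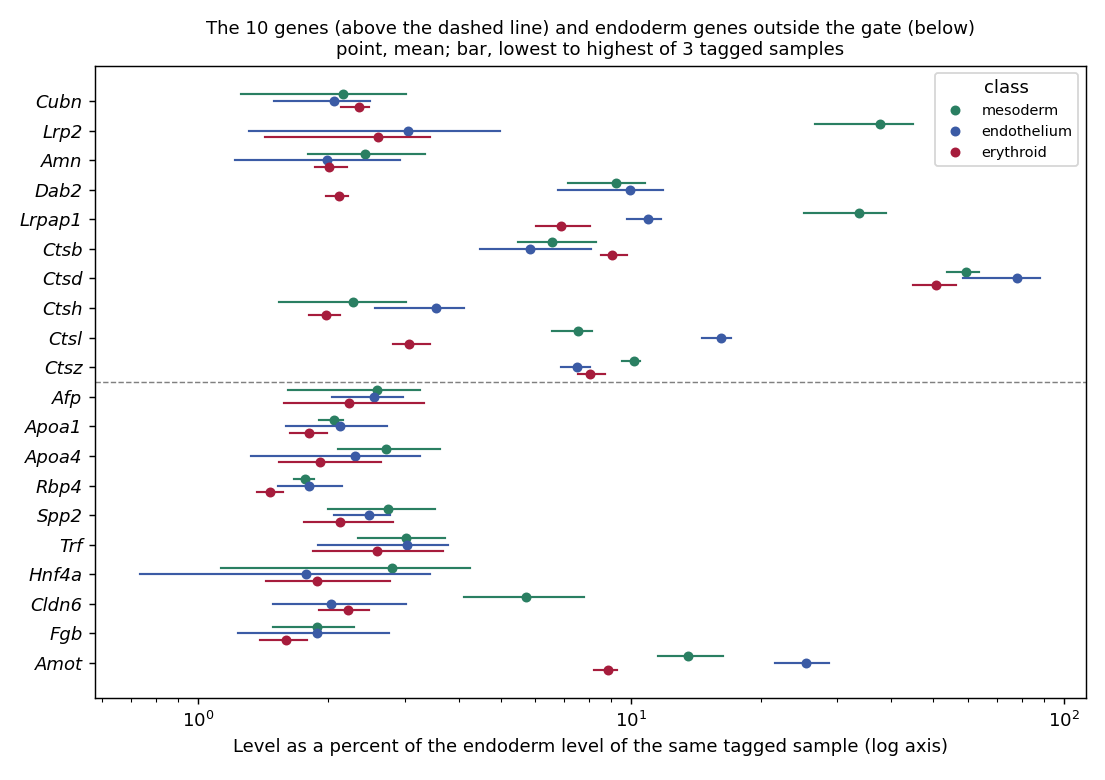
Level in mesoderm, endothelium and erythroid cells as a percent of the endoderm level of the same tagged sample (log axis), for the 10 genes above the dashed line and 10 other endoderm genes below it. Points are means and bars run from the lowest to the highest of 3 tagged samples. Cubn and Amn lie among the other endoderm genes, Lrp2 and Lrpap1 lie far to the right in mesoderm, and Ctsd runs from 44.8% upward in all 3 classes.

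Among the cathepsins, Ctsh was near the background in mesoderm and erythroid cells, as cubilin and amnionless were. It was at 719, 759 and 718 CPM in endoderm, 16.4, 23.0 and 11 in mesoderm, 18.4, 30.1 and 29.6 in endothelium, and 13, 15.1 and 15.3 in erythroid cells. That is 2.28%, 3.55% and 1.98% of the endoderm level. The endothelium value was above the median background of 2.22% but near that of Trf, the iron carrier, at 3.04%. Ctsh, an aminopeptidase as well as an endopeptidase, differed from endoderm by log2 differences of -5.67 (SE 0.17), -4.97 (SE 0.14) and -5.41 (SE 0.08).

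Ctsl, an endopeptidase of broad specificity, was high in endoderm and graded in the rest. Endoderm gave 3395, 4009.8 and 4321 CPM, endothelium 576, 682 and 631, mesoderm 269, 327 and 284, and erythroid cells 117, 118 and 122. The 4 classes did not overlap. Endothelium held 16.2% ± 1.38 of the endoderm level, mesoderm 7.55% ± 0.845 and erythroid cells 3.07% ± 0.323. Ctsl was higher in endothelium than in mesoderm by a log2 difference of 1.22 (SE 0.10, adjusted p = 6.17e-07). It was lower in erythroid cells than in mesoderm by -0.89 (SE 0.08, adjusted p = 1.12e-06) and than in endothelium by -2.09 (SE 0.08, adjusted p = 3.4e-10). With cells thinned to 10000 UMIs, Ctsl was seen in 531 of 531 endoderm cells, 94.1% of mesoderm cells, 99.0% of endothelium cells and 66.9% of erythroid cells. Apoa1, an endoderm gene at background elsewhere, was then seen in 64.0% of mesoderm cells, 68.0% of endothelium cells and 67.7% of erythroid cells. Apoa1 was at 6740 CPM in endoderm beside 3909 for Ctsl, so similar shares of cells do not mean similar percents of the endoderm level. As a percent of its endoderm level, Ctsl in erythroid cells (2.82% to 3.43%) was above the median background of 2.02%. Of the other endoderm genes outside the gate, only Amot had a higher mean there, at 8.86%. The Ctsl range lay within that of Trf (1.84% to 3.69%) and overlapped that of Afp (1.58% to 3.32%). The part of carried-over endoderm RNA in the Ctsl level of erythroid cells was not tested. Macrophages also make cathepsins, and 5 of 11 macrophage markers, C1qa, C1qb, C1qc, Adgre1 and Ptprc, were at 0 in the endothelium class. Of these, C1qa, C1qb, C1qc and Adgre1 were at 0 in every class. The other 6 were highest in endothelium, among them Fcer1g at 19.6 CPM and Tyrobp at 3.35. The list summed to 86.1 to 169 CPM there, mostly from Mrc1, and to at most 2.71 in the other classes. Its part in the Ctsl level of endothelium was not tested.

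Ctsb and Ctsz were about an order of magnitude lower outside endoderm. In every class their mean percent of the endoderm level was above the background of endoderm genes other than Amot. In mesoderm the range of Ctsb (5.49% to 8.29%) overlapped that of Cldn6 (4.11% to 7.79%). Ctsb, an endopeptidase and dipeptidyl carboxypeptidase, was at 877, 934 and 963 CPM in endoderm and at 85.9, 79.8 and 84.5 in erythroid cells. Mesoderm had 48.2, 77.4 and 57.2 and endothelium 43.3, 75.7 and 43.2, which overlapped each other and lay below all erythroid values. Ctsb was higher in erythroid cells than in mesoderm by a log2 difference of 0.85 (SE 0.13, adjusted p = 0.000113) and than in endothelium by 0.94 (SE 0.16, adjusted p = 0.000189). Ctsz, a carboxypeptidase, was at 820.5, 953 and 976 in endoderm, 86.0, 99.6 and 93.3 in mesoderm, 71.3, 71.9 and 77.0 in erythroid cells, and 62.9, 76.5 and 67.2 in endothelium. It stood at 10.2%, 8.04% and 7.53% of the endoderm level in these 3 classes. Ctsz in erythroid cells and mesoderm did not differ by the test (log2 difference 0.08, SE 0.08, adjusted p = 0.441), and this difference turned to -0.34 when scaled by library size alone.

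Ctsd differed less between the classes than the other cathepsins. It was at 117, 109.7 and 116 CPM in endoderm, 68.9, 97.1 and 101 in endothelium, 63.2, 70.0 and 71.2 in mesoderm, and 52.6, 61.8 and 59.5 in erythroid cells. All endoderm values were above all others, and the ranges of mesoderm and endothelium overlapped. Endothelium held 77.9% ± 16.7 of the endoderm level, mesoderm 59.6% ± 5.17 and erythroid cells 50.7% ± 5.78. Log2 differences from endoderm were -0.50 (SE 0.13, adjusted p = 0.00393) in endothelium, -0.99 (SE 0.09, adjusted p = 1.42e-06) in mesoderm and -0.75 (SE 0.08, adjusted p = 3.09e-06) in erythroid cells. The order of mesoderm and erythroid cells thus differs between CPM and the fit, and it depends on the scaling: erythroid cells against mesoderm gave 0.19 (SE 0.10, adjusted p = 0.0984), and from -0.23 with library size scaling to 0.33 with no low-count filter. The ratio of Ctsl to Ctsd UMIs was 28.9 to 37.1 in endoderm, 6.26 to 8.37 in endothelium, 3.99 to 4.67 in mesoderm and 1.91 to 2.22 in erythroid cells, with no overlap. Endothelium was higher than mesoderm in Ctsd by 0.49 (SE 0.15, adjusted p = 0.0232), and leaving out tagged sample 2 or 3 ended this call, at adjusted p of 0.141 and 0.184.

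Neighbouring genes limit what some of these counts mean. Exons of Ctsd overlap, on the same strand, those of the protein-coding gene Gm49369, which was listed at 0 in every class, and the sources used here do not say how reads that match both were counted, so the level of Ctsd is uncertain. Exons of Ctsb, Ctsl and Ctsz overlap Fdft1, Gm47123 and Nelfcd on the opposite strand. Whether the counting used strand is likewise not said in the sources used here. Those neighbours were low in endoderm, at 26.1, 2.31 and 28.5 CPM beside 925, 3909 and 916 for the cathepsins. Outside endoderm Fdft1 and Nelfcd came closer to them. Fdft1 was at 36.9 beside 54.1 for Ctsb in endothelium, and at 21.4 beside 83.4 in erythroid cells. Nelfcd was at 30.4, 26.6 and 32.2 in mesoderm, endothelium and erythroid cells, beside 92.9, 68.9 and 73.4 for Ctsz. Gm47123 was lower in each of these classes than in endoderm. The part of these neighbours in the levels of Ctsb and Ctsz was not tested.

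Between the 3 classes other than endoderm, fewer of the 10 genes differed. In endothelium against mesoderm, Ctsd and Ctsl were called higher and Lrp2 and Lrpap1 lower, 4 of 10, where 35.4% of 9103 genes were called. In erythroid cells against mesoderm, 6 of 10 were called, where 70.8% of 9742 genes were: Cubn and Ctsb higher, and Lrp2, Dab2, Lrpap1 and Ctsl lower. In erythroid cells against endothelium, 7 of 10 were called, where 66.0% of 9256 genes were: Cubn, Ctsb and Ctsz higher, and Dab2, Lrpap1, Ctsh and Ctsl lower. All 3 counts are near the share of all genes, so they are not a result about the 10. The Cubn calls are at the level of background RNA in all 3 classes, at log2 differences of 0.53 (SE 0.20, adjusted p = 0.0313) and 0.53 (SE 0.17, adjusted p = 0.0167). The first was lost without tagged sample 1 (adjusted p = 0.0712) or 3 (0.151), and the second without any 1 of the 3 (0.0515 to 0.0967). Ctsh in erythroid cells against endothelium (-0.48, SE 0.19, adjusted p = 0.0448) was lost without tagged sample 2 (0.195) or 3 (0.193), and Ctsz (0.41, SE 0.10, adjusted p = 0.00364) without tagged sample 3 (0.0799). Ctsh was higher in endothelium than in mesoderm by a log2 difference of 0.72 (SE 0.29), which missed the threshold (adjusted p = 0.0722) but was called under 7 of 13 alternatives, among them the tagged sample as a block (0.74, adjusted p = 0.0259), and the block also brought a call of Ctsd lower in erythroid cells than in endothelium (-0.30, adjusted p = 0.0209, against 0.0953).

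Within endoderm, the order of the tagged samples differed between the 10 genes. Tagged sample 1 was highest in Cubn, Lrp2, Dab2 and Ctsd, lowest in Amn, Lrpap1, Ctsb, Ctsl and Ctsz, and between the others in Ctsh. Its Ctsl level of 3395 compares with 4009.8 and 4321, and its Cubn level of 833 with 708 and 672. Other endoderm genes outside the gate also went both ways. Afp, the fetal serum albumin relative, was at 1117 CPM in tagged sample 1 and at 2554 and 2553 in the others, and Spp2 at 206 beside 428 and 374. Apoa1, Apoa4, Rbp4, Trf and Fgb were also lowest in tagged sample 1. Hnf4a (80.7, 64.0 and 69.7) and Amot (366, 292 and 282) were highest in it, and Cldn6 (274, 279 and 268) lay between. The part of this difference between tagged samples in the values of the 10 genes was not tested, and all 10 genes were still called lower than in endoderm in each class without tagged sample 1.

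Across single endoderm cells, some of the 10 genes varied together. Pearson's r was taken within each tagged sample between log2(UMIs per 10000 + 1) of each pair, over cells with at least 10000 UMIs, which left out 15, 10 and 3 cells. It is a description, since cells of a tagged sample share its library and depth. Of all 45 pairs the highest mean r was 0.69, between Ctsl and Ctsz (0.62 to 0.75 over the tagged samples). Ctsb and Ctsz had 0.61, Ctsb and Ctsl 0.60, and Ctsh and Ctsl 0.50. Amn, by role a cubilin partner, varied with the cathepsins: r was 0.59 with Ctsz, 0.54 with Ctsl and 0.46 with Ctsb, and 0.26 with Cubn.

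Cubn, Lrp2 and Dab2 also varied with each other. The mean r of Cubn and Lrp2 was 0.53 (0.47 to 0.57), of Cubn and Dab2 0.47 (0.40 to 0.52) and of Lrp2 and Dab2 0.34 (0.22 to 0.45). Between these 3 genes and Amn or the cathepsins mean r ran from near 0 to 0.35. It was 0.01 for Lrp2 and Amn, and -0.06 for Amn and Dab2 (-0.26 to 0.05 over the tagged samples). For Dab2 and Ctsl it was also -0.06 (-0.26 to 0.17), so the tagged samples differed in sign. The 0.35 of Ctsb and Cubn is as high as the mean r of Lrp2 and Dab2. The lowest mean r of Lrpap1 was with Lrp2, the receptor it chaperones, at -0.11 (-0.06, -0.01 and -0.25 in tagged samples 1, 2 and 3). The mean r of Lrpap1 was weakest with Ctsb (-0.01, from -0.20 to 0.11), Cubn (0.03, from -0.25 to 0.22) and Dab2 (0.04, from -0.11 to 0.20). It was higher with Ctsh (0.31) and Ctsl (0.28). Ctsd varied weakly with every other gene (at most 0.22, with Ctsb), and it gave only a median of 1.06 to 1.10 UMIs per 10000 in endoderm cells.

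**Figure D3:**
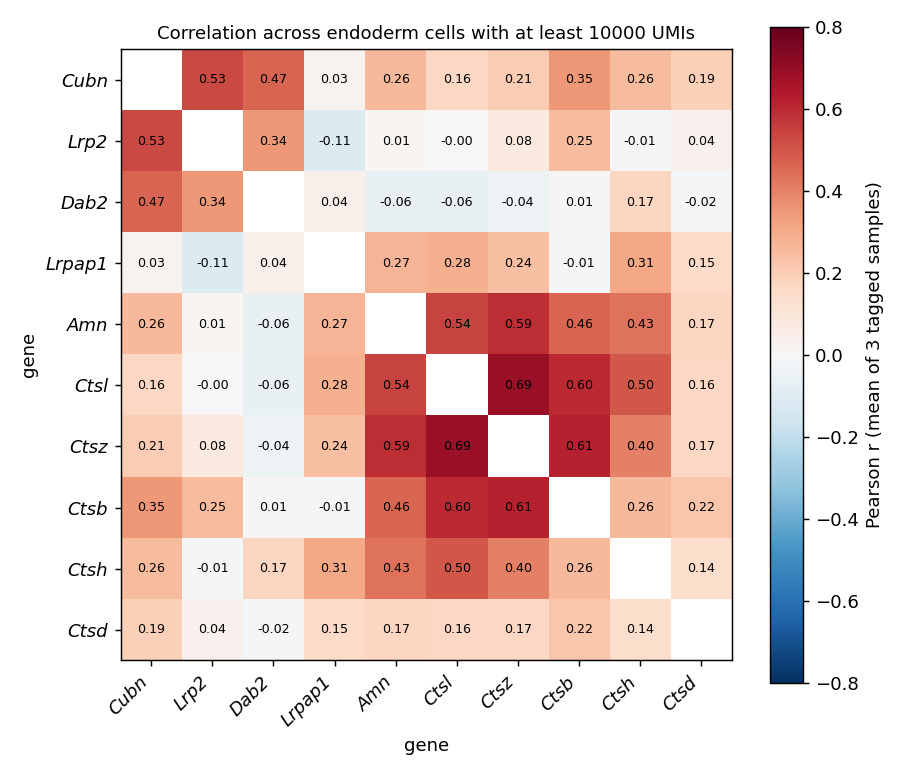
Pearson's r across endoderm cells with at least 10000 UMIs for each pair of the 10 genes (both axes), as the mean of 3 tagged samples. The square of Cubn, Lrp2 and Dab2 at the upper left holds r of 0.34 to 0.53, and the square of Amn, Ctsl, Ctsz, Ctsb and Ctsh at the lower right holds 0.26 to 0.69.

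Endoderm cells were also split by the secreted protein genes Spp2 and Apoa4. Between the third of cells with the highest and the third with the lowest share of those UMIs, Ctsb was 1.31 to 1.39 times as high over the 3 tagged samples, Ctsl 1.26 to 1.38 times, Amn 1.29 to 1.35 times and Ctsz 1.18 to 1.36 times. Lrpap1 (1.06 to 1.31) and Ctsh (1.03 to 1.25) were also higher in each tagged sample. Cubn (0.948 to 1.17), Lrp2 (0.831 to 1.11) and Ctsd (0.937 to 1.2) moved either way, and Dab2 was lower in each tagged sample (0.772 to 0.925). These ratios were not tested.

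For each of the 10 genes the 3 genes of most similar pattern were sought over the 12 sums (4 classes by 3 tagged samples), as the smallest root mean square difference of centred log2(CPM + 1) among 5183 genes. Nearest to Cubn were Spink1 (0.27), Fgb (0.28) and Apoa1 (0.31), and nearest to Amn were Fgb (0.17), Car7 (0.19) and Apoa1 (0.19), genes of secreted endoderm proteins apart from Car7, a carbonic anhydrase. For Ctsh they were Slc2a2 (0.16), a glucose transporter, Emb (0.25) and Dpp4 (0.25). The pattern of Lrp2 had no gene as close: the nearest, Car4, a membrane carbonic anhydrase, differed by 0.40, followed by the desmoglein Dsg2 (0.55) and Ly75 (0.56). Car4 was at 1374 CPM in endoderm, 433 in mesoderm, 40.4 in endothelium and 28.0 in erythroid cells, so it too was high in the first 2 classes.

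Nearest to Dab2 were Tmem37 (0.22), Stx3 (0.28), a syntaxin of apical membranes, and Hsd17b11 (0.33). For Lrpap1 they were 2200002D01Rik (0.24), Morc4 (0.30) and Bex2 (0.33). Ctsl had Tcn2 (0.31), the plasma carrier of vitamin B12 and itself a ligand of megalin, then Hsd17b11 (0.36) and Tpd52 (0.38). Tcn2 was at 127 CPM in endoderm, 34.0 in endothelium, 13.5 in mesoderm and 3.86 in erythroid cells, the order of Ctsl. Ctsb had Slc16a1 (0.30), Sgk3 (0.30) and Gcat (0.35), and Ctsz had Gcat (0.19), the protease gene Ctsc (0.23) and Cndp2 (0.27). The flat pattern of Ctsd was matched most closely, by Map1lc3b (0.13), an autophagosome protein, Cyb5a (0.13) and Lrrc41 (0.13).

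Other genes of the endocytic and lysosomal route were read from lists by name. Among other cathepsins and legumain, 4 of 19 passed the low-count filter in mesoderm against endoderm. Lgmn, the asparaginyl endopeptidase that processes cathepsins, was at 794 CPM in endoderm and 37.5 in mesoderm (log2 difference -4.64, SE 0.10). Ctsc was at 193 and 17.0 (-3.74, SE 0.11) and Ctsa at 179 and 29.5 (-2.84, SE 0.13). Ctso went the other way, with 18.2 in mesoderm and 0.162 in endoderm (6.07, SE 0.52, adjusted p = 1.27e-06). In endothelium Lgmn, Ctsc and Ctsa were lower than in endoderm and Ctso higher, and in erythroid cells Lgmn, Ctsc and Ctsa were lower.

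Proton pump and lysosome genes were lower outside endoderm. In mesoderm 16 of 17 V-ATPase subunits tested were called lower and 0 higher, with a median log2 difference of -1.66, and Atp6v0b went from 855 to 149 CPM and Atp6v1e1 from 482 to 121. Of 36 other lysosomal hydrolases and membrane proteins 29 were lower and 3 higher (median -1.49), with the sialidase Neu1 at 161 in endoderm and 13.2 in mesoderm, while Laptm4a (131 and 273) and the saposin precursor Psap (30.3 and 51.3) were higher in mesoderm. Among regulators of lysosomal genes 9 of 12 were lower and 1 higher (median -1.09): Tfeb, which binds the CLEAR element, was at 23.9 and 3.02 and Flcn at 16.5 and 3.66, while Rragd was at 14.5 in endoderm and 88.3 in mesoderm. In erythroid cells 17 of 17 V-ATPase subunits and 33 of 36 lysosomal genes were lower than in endoderm (medians -1.70 and -2.52), and in endothelium 15 of 17 and 26 of 34 were (medians -1.73 and -1.34). These lists were chosen with results of these data known, and all genes tested had the medians of -0.02, -0.05 and -0.05 given above. Of all genes tested, 33.2% were called lower and 30.6% higher in mesoderm, 31.9% and 28.6% in endothelium, and 41.8% and 36.1% in erythroid cells.

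Genes of the coat and of other receptors were called in both directions, and in erythroid cells mostly lower. Over all genes tested, 33.2% were called lower and 30.6% higher in mesoderm than in endoderm, 31.9% and 28.6% in endothelium, and 41.8% and 36.1% in erythroid cells, and the counts below are to be read beside these shares. Of 27 clathrin and adaptor genes 15 were lower and 3 higher in mesoderm than in endoderm (median -0.49), with the heavy chain Cltc at 532 and 180 CPM and the motor Myo6 at 244 and 30.6, against Hip1 (1.78 and 19.0) and Numbl (0.380 and 19.1). In endothelium 7 were lower and 12 higher (median 0.25), and in erythroid cells 18 of 26 were lower and 3 higher (median -0.77). Of 31 early and recycling endosome genes 18 were lower and 4 higher in mesoderm (median -1.17), among them the scaffold Pdzk1 (169 and 4.77) and the retromer subunit Vps26a (115 and 18.3) lower and Rab11fip1 (9.75 and 30.5) and Appl1 (46.9 and 76.3) higher. Other endocytic receptors split into 7 lower and 10 higher of 19 (median 0.32): the folate receptor Folr1 (335 and 9.02) and the HDL receptor Scarb1 (78.3 and 14.4) were lower in mesoderm, and Sort1 (2.23 and 30.1) and Lrp1 (13.4 and 66.8), a relative of megalin that Lrpap1 also chaperones, were higher. In endothelium 10 of 22 of these receptors were lower and 9 higher (median -0.33), and in erythroid cells 12 of 18 were lower and 3 higher (median -1.68). Among 3 cathepsin inhibitors tested, Cstb was lower in mesoderm (401 and 181) and the others were not called. In endothelium 3 of 4 inhibitors were higher and 1 lower, and in erythroid cells 3 of 3 were lower.

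The proteins that cubilin and megalin bind include many that endoderm itself makes. Of 11 such ligand genes tested 9 were lower and 2 higher in mesoderm than in endoderm (median -5.35). Rbp4 was at 10257 CPM in endoderm and 181 in mesoderm, and Apoe at 5879.7 and 223. Bmp4 (2.0 and 128) and Lpl (0.675 and 15.1), which are also listed as ligands, were higher in mesoderm. Both were higher than in endoderm in endothelium too, at 38.9 and 3.23 CPM, where Lrp2 was near the background. Bmp4 is also among the mesoderm markers used here, and Rbp4, Apoa1, Afp and Trf are among the endoderm markers. In endothelium 8 of 11 ligand genes were lower and 3 higher, Bmp4 and Lpl among the latter, and in erythroid cells 9 of 10 were lower.

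**Figure D4:**
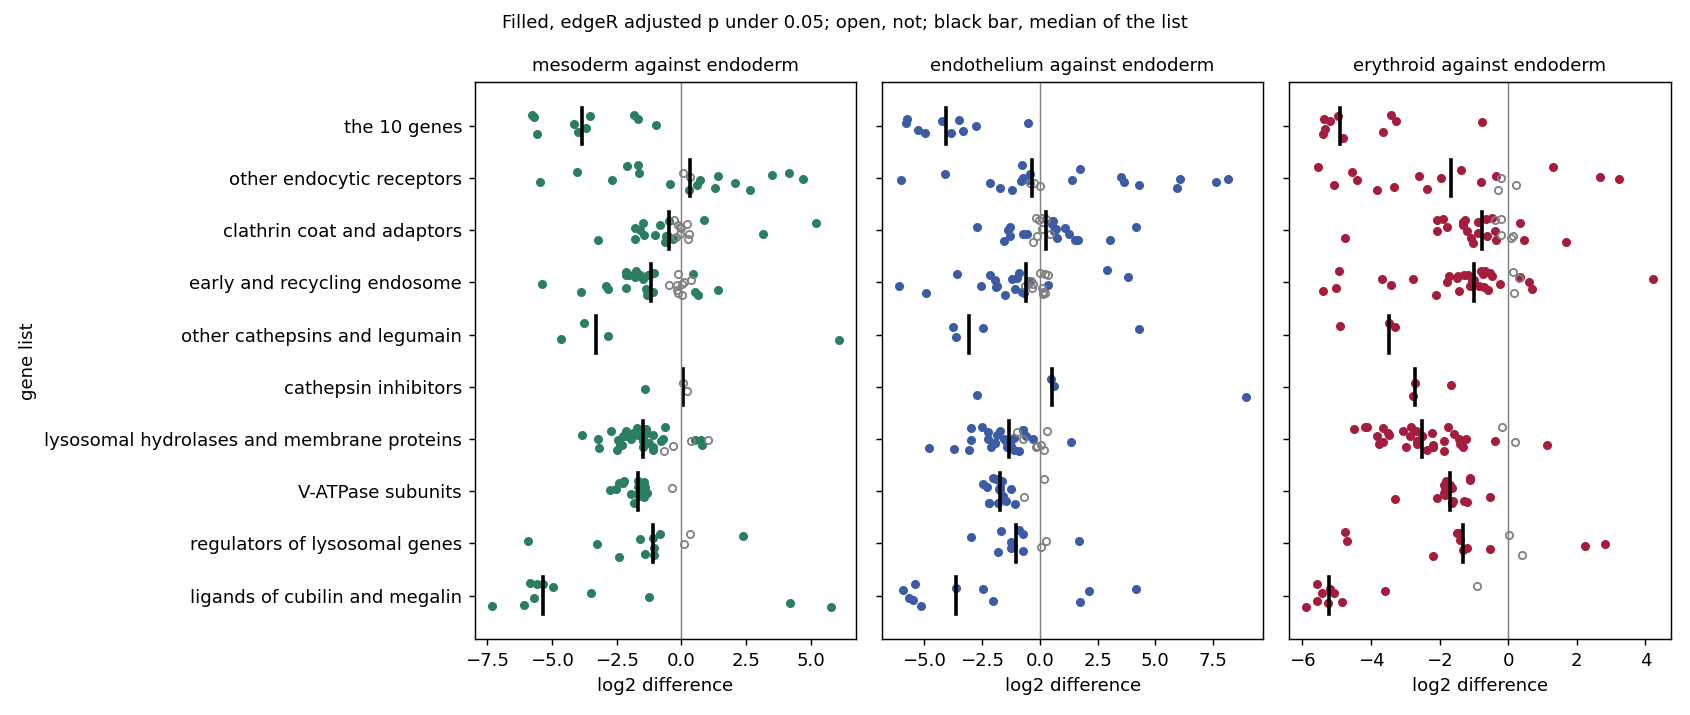
Log2 difference of each gene from endoderm (horizontal axis) by gene list, for mesoderm, endothelium and erythroid cells in 3 panels. Filled points have an edgeR adjusted p under 0.05, open points do not, and the black bar is the list's median, which for the 10 genes lies at -3.83, -4.05 and -4.89.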

How the data were processed

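The authors deposited raw UMI counts from Cell Ranger (6.1.2, per the file headers) on GRCm38 (mm10) per the submitters' processing notes, with 30970 gene rows and 6 tag rows for each of 3 tagged samples. How cells were assigned to tags is not stated. The 460, 651 and 706 cells held 22007477, 32890946 and 33114758 gene UMIs. Cells needed 500 genes and no more than 10% of mitochondrial UMIs (443, 614 and 683 cells). Classes were set by the share of UMIs: endoderm by Ttr, Apob and Apom at 0.3% or more, erythroid by 7 globin genes at 3%, endothelium by Cdh5, Ctla2a and Plvap at 0.04% and mesoderm by Hand1, Vcan and Foxf1 at 0.03%. Cells past 2 or more gates were left out, and Scrublet calls (scanpy 1.11.5; 21, 30 and 38 cells) were removed only as an alternative.

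Each pair of classes was fitted on sums per class and tagged sample with edgeR 4.0.16 on R 4.3.3 (TMM scaling, filterByExpr, quasi-likelihood test, threshold 0.05), a script tested on simulated data. All 10 genes passed the filter in all 6 comparisons. Both classes of a pair come from the same tagged samples, which pairs the sums by source, and same-sample sums deviated together with r of 0.0069 to 0.161 over genes. Alternatives were the tagged sample as a block, DESeq2 1.42.0, library size scaling, no low-count filter, sums thinned to the smallest, all 4 classes in 1 fit, doublet calls removed, at most 5% mitochondrial UMIs, gates doubled, cells under 10000 UMIs left out, and leaving out tagged samples singly.

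The genes, gates, lists and markers were chosen with earlier results of these data known. The text names the 10 genes, from each list the 2 genes of smallest p in each direction of mesoderm against endoderm, the other cathepsins that passed the filter, the 3 nearest genes to each of the 10, and marker or overlapping genes beside the results they touch. One gene that this rule names is not reported here. Gene identifiers matched GENCODE M21 for 30900 of 30970.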

Additional observations from a re-analysis of the deposited data

Results flagged for a closer look

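Cells outside the 4 classes also gave UMIs of the 10 genes, above the limit that a count of 0 allows. In the 188 cells of no class the 10 genes together were at 781 CPM (706, 1089 and 578 in tagged samples 1, 2 and 3), where 3 counts of the total would be 0.357. Lrpap1 there was at 50.6, 226 and 66.7, so tagged sample 2 was high. In the 50 cells past 2 or more gates they were at 3369.9 (3419, 3976 and 2698), of which 28 were Scrublet calls. In the 77 cells that failed the filters they were at 5947 (5728, 5708 and 6493), with Cubn at 902, 717 and 628 and Ctsl at 1518, 1328 and 2141. No class was given to these cells and no comparison used them.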

How the results depend on the processing

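Against endoderm, all 10 genes were called lower in mesoderm, endothelium and erythroid cells under all 13 alternatives (130 values for each comparison). Of the counts of genes called over all genes tested, none moved by over 1.5 times in any comparison. In endothelium against mesoderm, 4 of the 10 were called as reported and 7 with gates doubled, with Dab2 and Ctsh higher and Ctsz lower besides, and 3 to 5 with 1 tagged sample left out. In erythroid cells against endothelium, 7 were called as reported, and 3 to 7 with 1 tagged sample left out, the 3 being without tagged sample 3. Scaling by library size turned Ctsz in erythroid cells against mesoderm from 0.08 to -0.34 (adjusted p = 0.00343), and ended the calls of Cubn in both erythroid comparisons, of Ctsd in endothelium against mesoderm and of Ctsz in erythroid cells against endothelium. Thinning the sums ended the calls of Cubn in erythroid cells against mesoderm (adjusted p = 0.277) and endothelium (0.769), of Ctsd in endothelium against mesoderm (0.0891) and of Lrpap1 (0.0792) and Ctsz (0.0817) in erythroid cells against endothelium. The Lrpap1 call was also lost with no low-count filter (0.135) and in 1 fit of all 4 classes (0.129), and the Ctsh call beside it in both (0.0735 and 0.0932). Library size scaling moved the median of all genes tested from -0.02 to 0.22 in mesoderm, from -0.05 to 0.08 in endothelium and from -0.05 to -0.27 in erythroid cells against endoderm, from -0.01 to -0.13 in endothelium against mesoderm, from -0.03 to -0.45 in erythroid cells against mesoderm and from 0.03 to -0.28 against endothelium. The share of calls that were higher went from 48.0% to 62.4% in mesoderm against endoderm, from 55.1% to 42.0% in endothelium against mesoderm, from 46.9% to 24.0% in erythroid cells against mesoderm and from 48.3% to 30.4% against endothelium. The replicate block changed 2 calls of the 10 genes, both brought (Ctsh 0.74 in endothelium against mesoderm, Ctsd -0.30 in erythroid cells against endothelium). With 1 tagged sample left out, the spread rests on 2 sums a class. Precision is limited by the 3 tagged samples, and for Lrp2 in endothelium by its 23 UMIs.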
